A study of Rattus norvegicus with 16 samples.

Results

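The genes described here are the rat collagens, the enzymes that cross-link or cut them, and the inhibitors of those enzymes, followed in liver from 3 to 24 months of age. They were chosen by name on the array: collagen chains, matrix metalloproteinases, tissue inhibitors of metalloproteinases, lysyl oxidases, laminin chains and ADAMTS proteases, together with Fn1, Vim, Pdgfrb, Adam8, Dcn, Lum and Sparc. The choice gave 103 of the 35119 genes on the array, read by 147 of its 41012 probes. Of the 103, 66 lay well above background on every array of at least 1 age and were tested, among 21489 genes tested in all. A further 37 were not tested, and 17 of the 103 lay above background on no array at all. 2 names only look like matrix genes: Col4a3bp encodes a ceramide transfer protein and Loxhd1 is no lysyl oxidase, and neither is counted in a class below.

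The livers came from male Lewis rats, with no treatment named, of 3 months (3 samples), 9 months (3), 12 months (3), 18 months (3) and 24 months (4), and each sample was hybridised to its own one-colour array of mRNA probes. The rats lived free of specific pathogens, with 12-h light and dark phases and unrestricted food and water, and livers were frozen in liquid nitrogen. Whether the samples are separate animals is not stated, so the spread between arrays may be partly technical. The protocol names a miRNA labelling kit although the probes are those of mRNAs, and this could not be resolved from the labels. Whole liver was used, so that fewer cells of a type and less RNA per cell cannot be told apart.

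Extracellular matrix is the protein scaffold around cells. Its fibrils are built from fibrillar collagens, chiefly types I, III and V, which are secreted as procollagens, trimmed and then cross-linked by lysyl oxidases, while basement membranes rest on sheets of collagen IV and laminin. In liver the fibrillar chains come mostly from stellate cells and portal fibroblasts. Matrix metalloproteinases and ADAMTS proteases cut matrix proteins or their precursors, and the 4 TIMPs bind and inhibit metalloproteinases. An mRNA level does not show how much collagen lies in the tissue, since deposited collagen turns over slowly.

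The probes behind the main results are 60 bases long, and the sequences below, from the array files, are those of probes for collagens, Loxl2 and Mmp12. For Col1a2 the second probe is shown, not the main one. In the lines for Col1a1 and Col3a1, capitals mark the longest run of bases that each Col1a1 probe shares with the Col3a1 probe. In the line for Col4a1, capitals mark CG dinucleotides. Positions are in build rn4, plus strand, as the array files give them.
Col3a1, probe A_44_P146518, chr9:44317465-44317524: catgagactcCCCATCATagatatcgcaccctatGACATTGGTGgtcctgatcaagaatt
Col1a1, probe A_44_P350521, chr10:83637956-83638015: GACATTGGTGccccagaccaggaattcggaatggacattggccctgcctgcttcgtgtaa
Col1a1, probe A_44_P419137, chr10:83637903-83637962: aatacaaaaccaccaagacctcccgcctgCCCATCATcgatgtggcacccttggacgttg
Col1a2, probe A_44_P458851, chr4:29425301-29425360: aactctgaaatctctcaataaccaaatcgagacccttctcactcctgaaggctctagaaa
Col4a1, probe A_44_P1070510, chr16:83045409-83045468: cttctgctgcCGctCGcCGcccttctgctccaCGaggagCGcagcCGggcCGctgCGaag
Loxl2, probe A_44_P105225, chr15:50067990-50068049: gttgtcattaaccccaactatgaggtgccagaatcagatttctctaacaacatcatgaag
Mmp12, probe A_44_P555271, chr8:4259057-4259413: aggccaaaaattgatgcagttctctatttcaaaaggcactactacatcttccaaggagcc
The first Col1a1 probe and the Col3a1 probe matched at 21 of 26 bases in their best ungapped alignment, with 10 identical bases in a row. The second matched at 29 of 41 bases, with 8 in a row. The rn4 interval of the Mmp12 probe is longer than the probe itself. The Col4a1 probe shown starts at base 226 of its transcript, has 73.3% G and C and holds 8 CG dinucleotides.

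Values are log2 signals relative to the 75th percentile of each array, so a value of 0 is a signal equal to that percentile, and they are compared between ages for a gene, never between genes. Means are given with the SD over arrays, 4 at 24 months and 3 at every other age. A change is a difference of such log2 means, given with its SE, from a limma fit with 1 mean per age over all tested genes. It was called at a Benjamini-Hochberg adjusted p under 0.05 over all 21489 genes. The share of probes well above background ran from 52.5% to 65.2% over the arrays, and 0 spots were saturated. Precision is limited by the number of arrays. Where several probes of a gene are given, their p-values are adjusted over all 25697 probes. Arrays of one age correlated with their own group at a mean r of 0.962 to 0.994, lowest on 12-month array 2 and 24-month arrays 4 and 3. The median SD of the 46 members above background on all 16 arrays was lowest at 3 months, 0.16, and highest at 24 months, 0.32. Slides and scan days were not balanced over the ages. The 3-month arrays shared slide 1 with an array of 9 months, the 18-month arrays filled slide 4 alone, and the 24-month arrays lay on slides 5, 6 and 7. No slide, scan day or scan session held arrays of both 24 and 18 months.

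More members had their highest mean at 3 months, and more their lowest at 18 months, than at any other age. Of the 46 members above background on all 16 arrays, 19 had their highest mean at 3 months (41.3%), against 17.4% of the 16541 genes measured as well as that. The lowest mean fell at 18 months in 22 of the 46 (47.8%), against 4955 of those 16541 genes. Among the 22 were the collagens Col1a2, Col3a1, Col5a1, Col5a2, Col6a1 and Col18a1, the cross-linkers Loxl1 and Loxl2, the gelatinase Mmp2, the collagen-binding protein Sparc, the intermediate filament gene Vim and Pdgfrb, the receptor for platelet-derived growth factor on mesenchymal cells. These counts describe the order of means and carry no test. Any difference between the 5 ages was called in 30 of the 66 tested members (45.5%), against 37.4% of all genes. The 10 smallest adjusted p-values were those of Loxl2, Col3a1, Col9a1, Adamts9, Mmp2, Adamts3, Mmp1b, Loxl1, Pdgfrb and Col1a2, between 1.13e-05 for Loxl2 and 0.00138 for Col1a2.

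**Figure D1:**
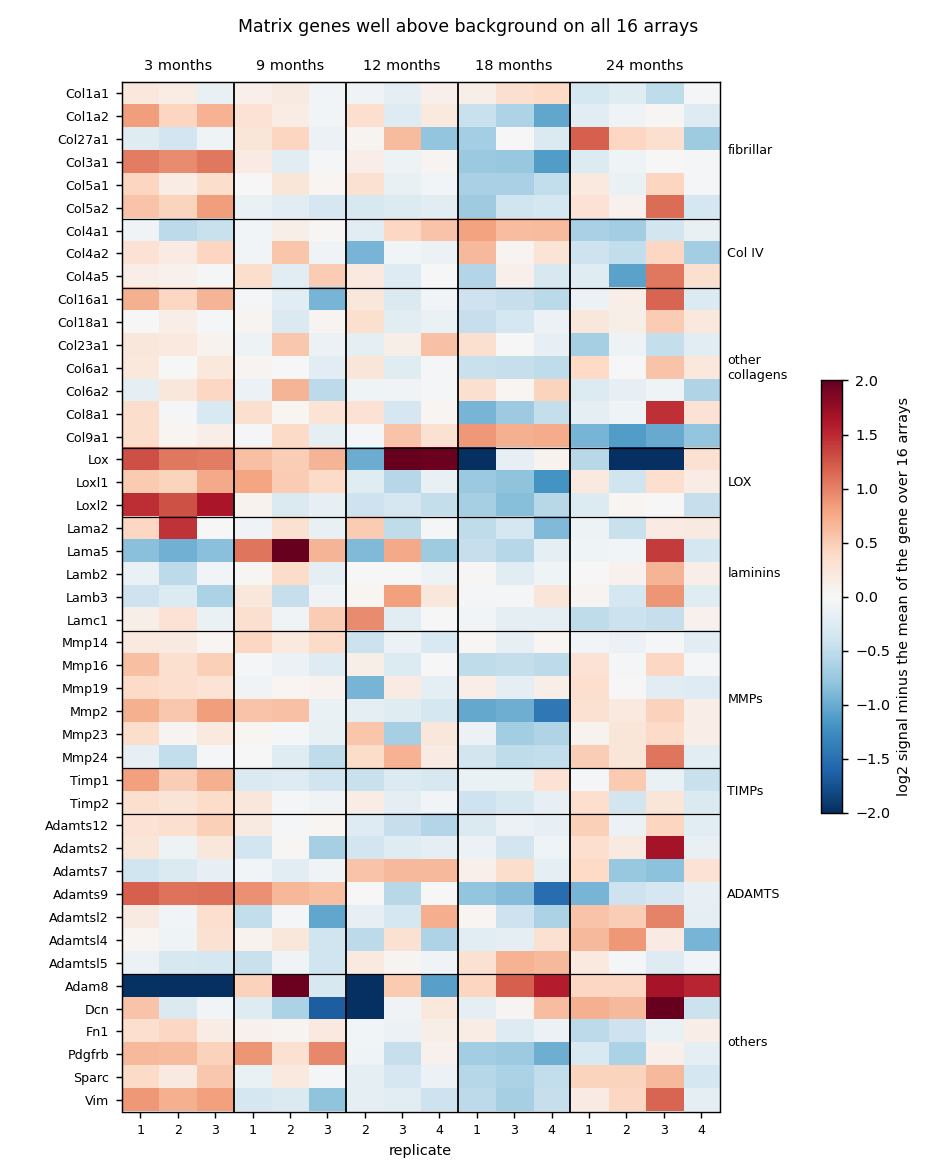
Log2 signal of each matrix gene well above background on all 16 arrays (Col4a3bp left out), minus the mean of that gene over the 16 arrays, with arrays in columns by age and replicate and genes in rows by class; colours stop at 2 either way, and stronger values are drawn as 2. Col3a1, Loxl2 and Adamts9 are red at 3 months, many collagens, Mmp2 and Sparc are blue at 18 months, and 24-month array 3 is red in many rows.

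The 24-month livers were compared with the 3-month livers first, the widest span of age in the study. Of the 66 tested members 13 differed (19.7%), 2 higher and 11 lower at 24 months, against 13.3% of all genes, of which 4.23% were higher and 9.08% lower. Under normexp background correction 2 were higher and 4 lower. Leaving out each array in turn kept 8 of the 13 calls, and with the slide as a random block those of Adam8, Adamts3, Col3a1, Col9a1 and Loxl2 passed. The median change of the 66 was -0.316 on the log2 scale, against -0.039 for all genes. Its sign depended on the processing. Under normexp correction it was 0.151, against 0.12 for all genes. With no filter it was 0.004 over 103 members, against 0.045 for all genes. Higher were Adam8, a membrane-bound metalloprotease of leukocytes, and Mmp12, the macrophage elastase. Lower were the collagens Col3a1, Col1a2 and Col9a1, the cross-linker Loxl2, the proteases Adamts3, Adamts9 and Mmp1b, the inhibitor Timp1, the laminin chain Lama1, Fn1, which encodes fibronectin, and Pdgfrb.

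Col3a1 encodes the only chain of type III collagen, which lies beside type I in the fibrils of soft organs. Its level was 3.07, 3.27, 3.35 and 3.31 at 24 months and 4.37, 4.30 and 4.41 at 3 months, with no overlap and a gap wider than either group's range. It was 3.51, 3.14 and 3.31 at 9 months, 3.48, 3.25 and 3.40 at 12 months and 2.60, 2.60 and 2.22 at 18 months. The 24-month mean differed from the 3-month mean by -1.11 ± 0.13 (SE), a 2.16-fold lower signal (adjusted p = 0.000159). The drop had already happened by 9 months, with a difference of -1.04 (adjusted p = 0.00109) between 9 and 3 months, and 9 and 12 months did not differ beyond their spread. The 18-month arrays lay below all others, -0.90 ± 0.14 relative to 12 months (adjusted p = 0.00675). That step was lost under 5 of 19 alternatives: within the scan day or session (adjusted p = 0.098), on the compared ages alone (0.16), under normexp correction (0.183) and with the slide as a random block (0.546). The 24-month arrays lay above the 18-month arrays, by 0.77 ± 0.13 (adjusted p = 0.000699).

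Col1a2, the α2 chain of type I collagen, also had its highest mean at 3 months and its lowest at 18 months. Its main probe, in rn4 at chr4:29428206-29428265, gave 2.64, 2.77, 2.86 and 2.59 at 24 months and 3.68, 3.26 and 3.54 at 3 months. It gave 3.13, 2.98 and 2.79 at 9 months, 3.18, 2.59 and 3.04 at 12 months and 2.39, 2.22 and 1.81 at 18 months. The 24-month and 3-month arrays did not overlap, and the 24-month mean was lower by 1.72-fold, with a log2 change of -0.78 ± 0.18 (adjusted p = 0.00977). Without 3-month array 1 the adjusted p was 0.0582. The second probe, printed above, changed by -0.70 (adjusted p = 0.0355). Relative to 18 months the 24-month arrays were higher by 0.57 ± 0.18 (adjusted p = 0.0284) on the main probe and by 0.76 (adjusted p = 0.013) on the second. The main probe lost this call without 18-month array 3 or 4 or 24-month array 2 or 3, with an adjusted p of 0.146 at most.

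Col1a1, which pairs with Col1a2 in type I collagen, did not share this course on its main probe. That probe, A_44_P350521, gave 1.18, 1.13 and 0.83 at 3 months, 1.09, 1.30 and 1.38 at 18 months and 0.62, 0.73, 0.46 and 0.96 at 24 months. Against 3 months its change was -0.35 (adjusted p = 0.127), and against 18 months the 24-month arrays were lower by 1.48-fold (-0.56 ± 0.14, adjusted p = 0.0103, but 0.0513 without 18-month array 4). Probe A_44_P419137, placed beside the first in rn4, went the same way against 18 months, -0.79 (adjusted p = 0.00131). The third probe, A_44_P238421 at chr10:83638177-83638236, starts at base 4634 of the transcript and gave -2.20, -2.45, -1.13 and -2.43 at 24 months and -1.43, -2.73 and -3.05 at 18 months. Its change of 0.35 (adjusted p = 0.654) had the opposite sign and did not pass the threshold, and its levels at 3 months were -0.26, -1.47 and -0.72. Which of the 3 probes follows the level of the transcript was not tested.

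Of the 7 tested fibrillar collagen genes 2 were called for 24 against 3 months, against 13.3% of all genes. For 24 against 18 months 6 of the 7 were called, 4 higher and 2 lower, at a step where 25.8% of all genes were called. Col5a1, a chain of the type V collagen that sets fibril width, was -0.08 ± 0.14 at 3 months, -0.99 ± 0.09 at 18 months and -0.28 ± 0.25 at 24 months. The 24-month arrays lay above all of the 18-month arrays, by 1.63-fold (log2 change 0.71 ± 0.15, adjusted p = 0.00398), while the change from 3 months was -0.20 (adjusted p = 0.452). Its partner Col5a2 rose by 0.77 ± 0.25 (adjusted p = 0.0362) over 18 months, with 0.76, 0.55, 1.58 and 0.11 at 24 months and -0.24, 0.06 and 0.11 at 18 months. The 24-month arrays were uneven, and the call was lost when 1 of the 18-month arrays or 24-month array 1 was left out (adjusted p = 0.134 at most). The other 2 probes of Col5a2 rose by 0.75 (adjusted p = 0.00928) and 0.81 (adjusted p = 0.0222). Col2a1, the collagen of cartilage, was dim: it lay above background on all 3 arrays of 18 months and on none of 24 months, and its signal was at least 1.46-fold lower at 24 months (adjusted p = 0.0206, lost without 18-month array 3 or 4, at 0.0749 at most).

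**Figure D2:**
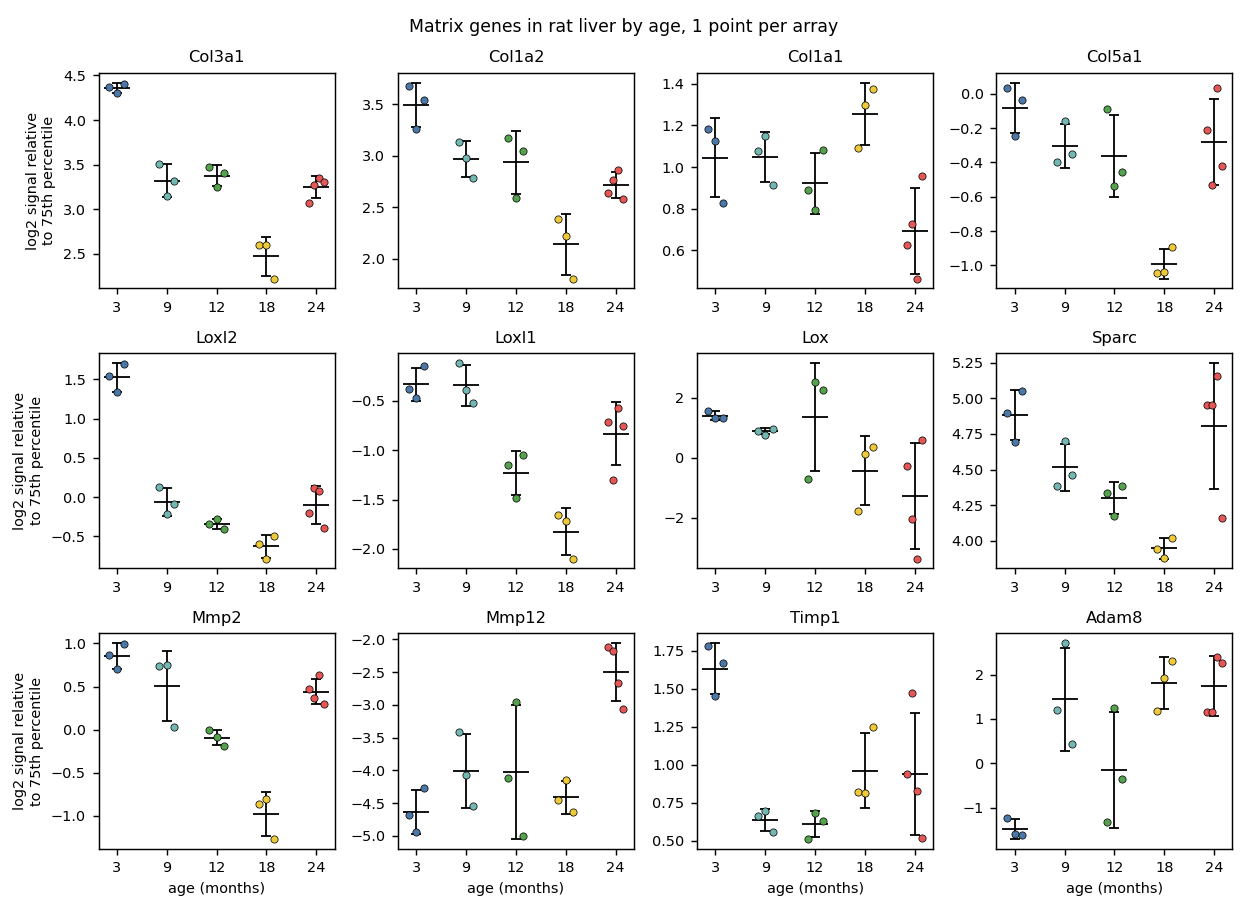
Log2 signal relative to the 75th percentile of the array for 12 matrix genes, 1 point per array, by age in months, with the mean and SD of each age; each panel has its own scale. Col3a1, Col1a2, Col5a1, Loxl1, Sparc and Mmp2 have their lowest mean at 18 months, Loxl2 and Timp1 drop between 3 and 9 months, and Mmp12 is highest at 24 months.

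Lysyl oxidases oxidise lysines in collagen and elastin so that the fibres can cross-link. Loxl2 was at -0.20, 0.11, 0.08 and -0.39 at 24 months and 1.54, 1.34 and 1.70 at 3 months, so that every 3-month array lay over 1 log2 unit above every 24-month array. At 9 months it was 0.13, -0.21 and -0.09, at 12 months -0.34, -0.27 and -0.41 and at 18 months -0.60, -0.78 and -0.49. The 24-month signal was 3.08-fold lower (log2 change -1.62 ± 0.15, adjusted p = 2.07e-05), and the 9-month signal 2.99-fold lower than at 3 months (-1.58 ± 0.16, adjusted p = 0.000162). After 9 months its steps were small, and the last, from 18 to 24 months, was 0.53 (adjusted p = 0.0185), lost without 18-month array 3 or 24-month array 2 (adjusted p = 0.0896 at most).

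Loxl1, an elastin cross-linker, changed by -0.01 (adjusted p = 0.989) between 3 and 9 months. It was -0.38, -0.47 and -0.15 at 3 months and -0.12, -0.39 and -0.52 at 9 months. Levels were -1.15, -1.48 and -1.05 at 12 months, -1.65, -1.72 and -2.10 at 18 months and -0.71, -1.30, -0.57 and -0.75 at 24 months. The 12-month arrays were lower than the 9-month arrays by 1.85-fold (-0.89 ± 0.20, adjusted p = 0.0222). This call was lost under 11 of 21 alternatives, among them leaving out 9-month array 1 or 2 or 12-month array 3 (adjusted p = 0.0905 at most). The 24-month arrays were 1.99-fold higher than the 18-month arrays (0.99 ± 0.19, adjusted p = 0.00163). Lox itself, the founding enzyme of the family, spread widely within an age. It was 1.57, 1.33 and 1.31 at 3 months, -0.71, 2.54 and 2.25 at 12 months and -0.27, -2.04, -3.37 and 0.58 at 24 months. Its change of -2.68 (adjusted p = 0.0652) between 24 and 3 months did not pass the threshold. The second Lox probe gave -2.45 (adjusted p = 0.0705).

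Metalloproteinases made up 22 of the members, and 10 of them were tested. For 24 against 3 months 1 was higher and 1 lower, against 13.3% of all genes called. For 24 against 18 months 6 were higher and 1 lower, against 10.8% of all genes higher and 15% lower. Mmp12 was at -4.68, -4.94 and -4.27 at 3 months, -4.46, -4.15 and -4.64 at 18 months and -2.11, -2.18, -2.67 and -3.06 at 24 months. It lay above background on 1 of 3 arrays at 3 months, on 2 of 3 at 18 months and on all 4 at 24 months, and the 24-month arrays lay above all arrays of both younger ages. The log2 change was 2.13 ± 0.41 against 3 months (adjusted p = 0.00359) and 1.91 ± 0.41 against 18 months (adjusted p = 0.00344). Under normexp background correction the change against 3 months was 0.92 on the log2 scale, and with the slide as a random block it did not pass. Mmp12 is a macrophage gene. For 24 against 3 months 4.23% of all genes were called higher and 9.08% lower. In a list of 11 macrophage and Kupffer cell markers 4 were higher and 1 lower. Their summed signal was 319.96 to 440.11 times the 75th percentile at 24 months and 328 to 341 times at 3 months. At 18 months it was 235 to 289 times. Of the 11, 8 were called higher and 0 lower at 24 than at 18 months, against 10.8% and 15% of all genes. The part of these markers in the result was not tested.

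Mmp2, or gelatinase A, cuts denatured collagen and collagen IV and is made by mesenchymal cells. It was 0.87, 0.70 and 0.99 at 3 months, 0.74, 0.75 and 0.03 at 9 months and -0.01, -0.08 and -0.18 at 12 months. It was -0.86, -0.80 and -1.27 at 18 months and 0.47, 0.36, 0.63 and 0.30 at 24 months. No 18-month array overlapped another age. The 24-month signal was 2.67-fold that of 18 months (1.42 ± 0.18, adjusted p = 6.99e-05), whereas against 3 months the change was -0.41 (adjusted p = 0.152). The step from 12 to 18 months was -0.89 ± 0.19 (adjusted p = 0.0394), and it no longer passed within the scan day that both ages shared, which leaves out 12-month array 2 (adjusted p = 0.113). Mmp14, the membrane-anchored enzyme that activates pro-Mmp2, stayed within 4.54 to 5.16 in its age means. Its only called step was the lower level at 12 than at 9 months, -0.61 ± 0.12 (adjusted p = 0.0118), which did not pass on the compared ages alone (adjusted p = 0.148) or without 9-month array 1 or 3 (adjusted p = 0.0573 at most).

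Mmp7, or matrilysin, an enzyme of epithelial cells such as bile duct cells, was measured at the ends of the age range. It lay above background on all arrays of 3 and 24 months, on none of 9 and 18 months and on 1 of 3 at 12 months. It was at -3.85, -2.95, -3.25 and -3.67 at 24 months and -5.58, -5.59 and -5.58 at 18 months, at least 2.12-fold higher at 24 months (adjusted p = 0.000496). Of 7 cholangiocyte markers 5 were higher and 1 lower at the same step, against 10.8% of all genes higher and 15% lower. The summed signal of the 7 markers was 3.42 to 5.09 times the 75th percentile at 24 months and 2.84 to 3.23 times at 18 months. Their part in the result was not tested. Mmp1b, a rat homologue of interstitial collagenase, lay above background on 3 of 3 arrays of 3 months and on 0 of 4 arrays of 24 months. Its signal was at least 1.10-fold lower at 24 months than at 3 months (adjusted p = 0.000553), and under normexp correction its change had the opposite sign. Mmp16, a membrane-type enzyme, rose by 0.67 ± 0.14 at 24 against 18 months (adjusted p = 0.00318). Its second probe went the other way, -0.92 (adjusted p = 0.0592).

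A row of 10 metalloproteinase genes lies on chromosome 8, their probes spanning rn4 positions 4168554 to 4533706, or 365.2 kb. In this row 7 genes were not tested and 3 were, Mmp12, Mmp1b and Mmp7. The 3 did not share a course: Mmp12 was highest at 24 months, Mmp1b lowest at 24 months, and Mmp7 had its highest levels at 24 and 3 months. Mmp1a was above background on no array, Mmp10, Mmp8, Mmp27 and Mmp20 on 1 array each, Mmp13 on 2 and Mmp3 on 4. Mmp9, or gelatinase B, which lies elsewhere and is carried by neutrophils, lay above background on 4 of 16 arrays and was not tested either.

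Among the inhibitors, Timp1 stood high at 3 months. Timp1 is induced in injured liver and secreted, and its levels were 0.94, 1.48, 0.83 and 0.52 at 24 months and 1.78, 1.45 and 1.67 at 3 months. They were 0.66, 0.70 and 0.56 at 9 months, 0.51, 0.68 and 0.63 at 12 months and 0.82, 0.82 and 1.25 at 18 months. The 9-month arrays lay below all 3-month arrays, 1.99-fold lower (-0.99 ± 0.20, adjusted p = 0.0115), a call lost without 3-month array 1 or 3 or 9-month array 3 (adjusted p = 0.0602 at most). One 24-month array overlapped the 3-month range, and the change of -0.69 ± 0.19 (adjusted p = 0.0274) was lost without any of 5 single arrays, with an adjusted p of 0.119 at most. Timp2, which also takes part in activating pro-Mmp2, had age means from 4.02 at 18 months to 4.64 at 3 months, and none of its 5 comparisons passed, with -0.33 (adjusted p = 0.235) for 24 against 3 months. Timp3, which binds to the matrix, changed by 0.51 (adjusted p = 0.601) over the same span, with an SD of 0.85 at 24 months. Timp4 lay above background on 1 array and was not tested.

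Of the 8 tested laminin chains 2 were called for 24 against 18 months, and of the 3 tested collagen IV genes 1 was, all lower, against 25.8% of all genes. Lama5, a chain of the laminins of mature basement membranes, was at -0.28, 0.66 and -0.68 at 9 months and -2.18, -2.30 and -2.19 at 3 months, 4.36-fold higher at 9 months (2.13 ± 0.48, adjusted p = 0.0197). Leaving out any one of 5 of the 6 arrays ended this call, with an adjusted p of 0.0877 at most. Lama1, a chain of early basement membranes, lay above background on 3 of 3 arrays of 18 months and on 0 of 4 of 24 months, at least 1.46-fold lower at 24 months (adjusted p = 0.000744). Only the 18-month arrays let Lama1 pass the filter, so this call is no independent evidence of a fall. Against 3 months, where 1 of 3 arrays measured it, no fold is given (adjusted p = 0.0102, but 0.0587 without 3-month array 1). Lamc3 fell by 3.01-fold at 24 against 18 months (-1.59 ± 0.43, adjusted p = 0.0143), measured on 2 of 4 and 3 of 3 arrays, and lost without 18-month array 4 (adjusted p = 0.0537). Lamb3 changed by 0.02 (adjusted p = 0.957) for 24 against 18 months on its main probe and by -1.75 (adjusted p = 0.014) on another of its 3 probes. Col4a2 changed by -0.59 (adjusted p = 0.196) against 3 months and by -0.62 (adjusted p = 0.123) against 18 months.

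Col4a1 encodes the chain that joins Col4a2 in the collagen IV of every basement membrane, and its 2 probes went opposite ways. Probe A_44_P1070510, near the start of the transcript, gave 1.33, 1.27, 1.60 and 1.83 at 24 months and 2.78, 2.58 and 2.60 at 18 months. The 24-month arrays lay below all 18-month arrays, with a log2 change of -1.15 (adjusted p = 0.000783). Probe A_44_P1021644, starting at base 6289 of the same transcript, at chr16:83157546-83157605, gave 0.64, 0.76, 1.18 and 0.44 at 24 months and 0.25, 0.10 and 0.25 at 18 months. All its 24-month arrays lay above the 18-month arrays, with a change of 0.56 (adjusted p = 0.0243). At 3 months the first probe gave 1.91, 1.44 and 1.52 and the second 1.68, 1.47 and 1.75, and the changes of 24 against 3 months were -0.12 (adjusted p = 0.763) for the first and -0.88 (adjusted p = 0.00341) for the second. The second probe, like Col1a2 and Col3a1, had its highest mean at 3 months and its lowest at 18 months, and the first, like the Col1a1 probes A_44_P350521 and A_44_P419137, was highest at 18 months. The first probe holds 73.3% G and C and the second 55.0%, and the part of base composition in the difference was not tested.

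**Figure D3:**
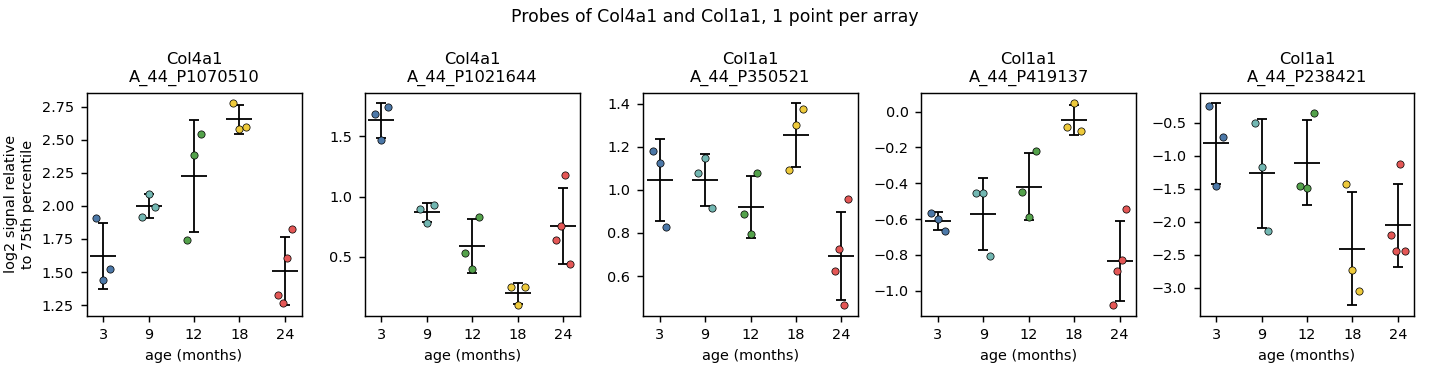
Log2 signal relative to the 75th percentile of the array for the 2 probes of Col4a1 and the 3 probes of Col1a1, 1 point per array, by age in months, with the mean and SD of each age; each panel has its own scale. Col4a1 probe A_44_P1070510 and Col1a1 probes A_44_P350521 and A_44_P419137 are highest at 18 months, where Col4a1 probe A_44_P1021644 and Col1a1 probe A_44_P238421 are lowest.

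Col4a1 and Col4a2 stand head to head, so that 1 stretch of DNA serves as promoter for both. In the RefSeq promoter windows of build GRCr8 (250 bases before to 50 after a start), the windows of the 2 genes share 176 bases and their starts lie 77 bases apart. The Col4a1 window is shown because it is shared by 2 members. Capitals mark the letters CCAAT or their complement ATTGG, the pentamer named after its own letters. The window holds 2 such matches, against 37.5% of all 33469 promoters with at least 1 on either strand.
Col4a1 promoter window, chr16:84885347-84885646, plus strand: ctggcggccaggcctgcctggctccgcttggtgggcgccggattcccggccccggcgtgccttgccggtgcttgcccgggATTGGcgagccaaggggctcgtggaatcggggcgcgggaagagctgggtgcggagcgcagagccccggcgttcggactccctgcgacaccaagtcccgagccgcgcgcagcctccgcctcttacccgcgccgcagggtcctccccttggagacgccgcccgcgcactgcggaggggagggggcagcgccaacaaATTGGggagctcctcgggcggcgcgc
A match is a description of the sequence only. Promoter windows were found for 76 of the 103 members.

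The members held 18 ADAMTS and ADAMTS-like genes, of which 12 were tested. Adamts9, a protease of proteoglycans, had its highest mean at 3 months and its lowest at 18 months. It gave 0.67, 0.57 and 0.58 at 3 months and 0.39, 0.13 and 0.08 at 9 months. It gave -0.51, -1.08 and -0.54 at 12 months, -1.31, -1.39 and -2.05 at 18 months and -1.45, -0.94, -0.86 and -0.68 at 24 months. No 24-month array overlapped the 3-month arrays, and the signal was 3.02-fold lower (-1.59 ± 0.22, adjusted p = 0.000363). The step from 9 to 12 months was called too, -0.91 (adjusted p = 0.0348), and was lost without any 1 of 5 arrays, with an adjusted p of 0.12 at most. Adamts3, which removes the amino-terminal propeptide of fibrillar procollagen, lay above background on 3 of 3 arrays of 3 months and on 0 of 4 arrays of 24 months. Its signal was at least 1.83-fold lower at 24 months than at 3 months (adjusted p = 0.000181) and at least 1.21-fold lower than at 18 months (adjusted p = 0.000726). Adamts1 and Adamts5, both aggrecan-cutting enzymes, were both called between 3 and 9 months. Adamts5 lay above background on 3 of 3 arrays at 9 months and 2 of 3 at 3 months. Only the 9-month arrays let Adamts5 pass the filter, so its calls against 9 months are no independent evidence of a peak there. At 9 months it was -1.65, -2.02 and -3.11 and at 3 months -4.10, -5.23 and -4.42, with a change of 2.32 (adjusted p = 0.00944), lost without 3-month array 2 (adjusted p = 0.0512), while Adamts1 lay above background on 1 of 3 arrays at 9 months and 3 of 3 at 3 months and is given no fold (adjusted p = 0.0076, lower at 9 months). At the next step, 12 against 9 months, Adamts5 was lower (adjusted p = 0.0382) and Adamts1 higher (adjusted p = 0.0496), with 1 of 3 arrays above background for Adamts1 at 9 months and 2 of 3 for Adamts5 at 12 months. The Adamts5 call at this step was lost under 14 of 20 alternatives and the Adamts1 call under 18 of 20. Adamts2, the other main procollagen amino-propeptidase, changed by 0.38 (adjusted p = 0.497) for 24 against 3 months.

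Of the 11 tested collagens of other types 3 were called higher and 2 lower for 24 against 18 months, against 10.8% of all genes higher and 15% lower. Col9a1, a chain of the cartilage collagen that decorates type II fibrils, was -1.70, -2.02 and -1.92 at 3 months, -1.19, -1.34 and -1.30 at 18 months and -2.99, -3.17, -3.05 and -2.84 at 24 months. The 24-month arrays lay below every array of the other ages. The signal was 2.19-fold lower than at 3 months (-1.13 ± 0.16, adjusted p = 0.000574) and 3.33-fold lower than at 18 months (-1.74 ± 0.16, adjusted p = 8.54e-06). The second Col9a1 probe changed by -1.22 (adjusted p = 0.0413) against 3 months and by -0.85 (adjusted p = 0.105) against 18 months. Col8a1, a short-chain collagen of vessels, rose by 1.08 ± 0.32 over 18 months (adjusted p = 0.0259), with 24-month array 3 at -0.51 and the other three between -2.17 and -1.68. Without 18-month array 1 or 3 the call was lost, with an adjusted p of 0.0949 at most.

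Outside the enzyme and collagen families, Adam8 gave the largest difference of the called members. It was -1.23, -1.59 and -1.63 at 3 months, 1.19, 2.71 and 0.42 at 9 months, -1.33, 1.26 and -0.35 at 12 months, 1.17, 1.93 and 2.31 at 18 months and 1.15, 1.15, 2.39 and 2.26 at 24 months. All arrays of 9, 18 and 24 months lay above the 3-month arrays, and the 12-month arrays ran from the 3-month level to that of 9 months. The 24-month signal was 9.33-fold that of 3 months (3.22 ± 0.60, adjusted p = 0.00314), and the change of 9 against 3 months was 2.93 (adjusted p = 0.0167). Without 9-month array 2 or any 1 of the 3-month arrays the 9-month call was lost, with an adjusted p of 0.0749 at most. Its second probe changed by 2.24 (adjusted p = 0.0425) for 24 against 3 months.

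Fn1, the plasma and matrix fibronectin made largely by hepatocytes, was 7.18, 7.28, 7.57 and 7.83 at 24 months and 8.03, 8.12 and 7.84 at 3 months, with a gap of the lowest 3-month to the highest 24-month array smaller than either range. Its change of -0.53 ± 0.16 (adjusted p = 0.0406) was lost under 14 of 19 alternatives, with a highest adjusted p of 0.163 among single arrays left out. The second Fn1 probe changed by -0.38 (adjusted p = 0.195). Pdgfrb fell by 1.78-fold over the same span (-0.83 ± 0.20, adjusted p = 0.0135), and without either of 3-month arrays 1 and 2 the adjusted p was 0.0585 at most. It was 0.56, 0.55 and 0.37 at 3 months, -0.78, -0.82 and -1.06 at 18 months and -0.39, -0.72, 0.01 and -0.26 at 24 months. Vim was 1.48, 1.33 and 1.44 at 3 months, 0.27, 0.33 and -0.19 at 9 months, 0.09, -0.04 and 0.15 at 18 months and 0.78, 1.04, 1.79 and 0.43 at 24 months. It dropped between 3 and 9 months, -1.28 (adjusted p = 0.0113), lost without 3-month array 1 or 9-month array 3 (adjusted p = 0.0614 at most), and lay higher at 24 than at 18 months, 0.94 (adjusted p = 0.0112). Sparc rose by 1.81-fold at 24 against 18 months (0.86 ± 0.20, adjusted p = 0.00556), with 4.95, 4.95, 5.16 and 4.16 at 24 months and 3.94, 3.88 and 4.02 at 18 months. Dcn, which encodes the small proteoglycan decorin, was 0.38, 0.32, 2.58 and -0.76 at 24 months and 0.24, -0.61 and -0.38 at 3 months and passed no comparison, with 0.88 (adjusted p = 0.459) for this one. Lum, its relative lumican, lay above background on no array.

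Between 3 and 9 months 9 members were called (13.6%), 3 higher and 6 lower at 9 months, against 5.13% of all genes (1.94% higher and 3.2% lower). The lower ones were Loxl2, Adamts1, Vim, Col3a1, Timp1 and Mmp16, and the higher ones Adam8, Adamts5 and Lama5. At 12 against 9 months 6 members were called (9.09%), Adamts1 higher and Adamts5, Adamts9, Loxl1, Mmp14 and Pdgfrb lower, against 6.27% of all genes (3.17% higher and 3.1% lower). With quantile normalization 0 were higher and 5 lower. Of these 6 calls 0 were kept with each array left out in turn. At 18 against 12 months the 2 called members were Col3a1 and Mmp2, both lower (3.03%, against 1.38% of all genes, 1.07% higher and 0.316% lower). An unadjusted limma p under 0.05 was found for 20 of the 66 members, against 3925 of all 21489 genes.

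At 24 against 18 months 29 of the 66 members were called (43.9%), 17 higher and 12 lower at 24 months, against 25.8% of all genes (10.8% higher and 15% lower). The median change of the 66 was 0.295 on the log2 scale, against 0.049 for all genes. The 17 were 4 fibrillar collagens (Col1a2, Col3a1, Col5a1, Col5a2), Col6a1, Col8a1, Col18a1, Loxl1, Loxl2, the 6 metalloproteinases Mmp2, Mmp7, Mmp12, Mmp16, Mmp23 and Mmp24, and Sparc and Vim. The 12 were Lama1, Lamc3, Col9a1, Col9a2, Col2a1, Col4a1, Col1a1, Mmp1b and the 4 ADAMTS genes Adamts1, Adamts3, Adamts10 and Adamtsl5. Of these 12, 8 lay above background on fewer than 16 arrays, against 2 of the 17. Lama1 and Col9a2 passed the filter only through their 18-month arrays, so their calls at this step are no independent evidence of a fall. With the slide as a random block 1 of the 29 calls passed, that of Col9a1, and with the scan session as a block those of Col9a1, Adamts3 and Mmp2. Under normexp correction 3 members were called higher and 1 lower, and 4.53% of all genes were called. Leaving out each array in turn kept 15 of the 29 calls.

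**Figure D4:**
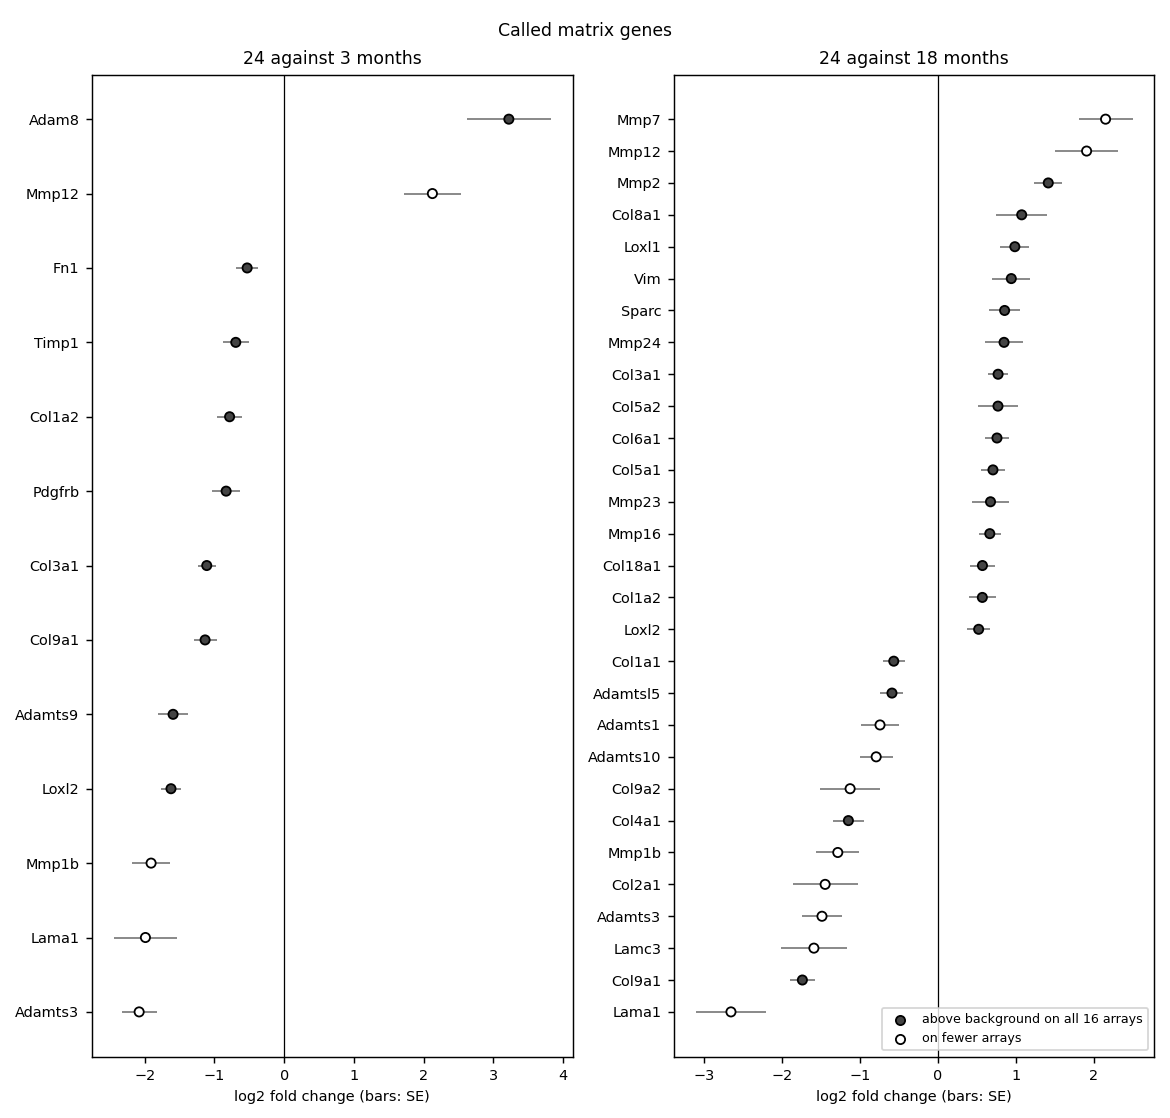
Log2 fold changes, with SE bars, of the members called for 24 against 3 months (left) and for 24 against 18 months (right), ordered by size; filled points lay well above background on all 16 arrays and open points on fewer. Adam8 and Mmp12 are the 2 members to the right of 0 on the left, and 17 of the 29 points on the right lie right of 0.

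Markers of the cells that make matrix were compared over the same arrays. For 24 against 3 months 4.23% of all genes were called higher and 9.08% lower. For 24 against 18 months 10.8% of all genes were called higher and 15% lower, and the marker counts stand against these shares. The summed signal of 11 stellate cell markers was 266 to 276 times the 75th percentile at 3 months, 214 to 238 times at 18 months and 248 to 295 times at 24 months. At 24 against 18 months 2 of the 11 were called higher and 0 lower, among them Pdgfra, the second receptor for platelet-derived growth factor (0.69, adjusted p = 0.016). At 24 against 3 months 1 was lower, Gfap (adjusted p = 0.00823), which lay above background on 8 of 16 arrays and is given no fold. Of 4 smooth muscle markers 1 was higher and 2 were lower at 24 than at 18 months, and the smooth muscle myosin gene Myh11 changed by -1.39 (adjusted p = 0.000181) against 3 months. Of 6 portal fibroblast and mesothelium markers 1 was higher at 24 than at 18 months, Msln, and 2 were lower, Eln and Cd34. The signal of the 6 summed to 0.908 to 1.19 times the 75th percentile at 18 months and 1.78 to 2.32 times at 24 months. It was 1.03 to 1.16 times at 3 months and 0.654 to 1.83 times at 9 months. Neutrophil markers summed to 1.69 to 51.3 times the 75th percentile at 24 months and to 15.8 to 18.5 times at 3 months, against 1.19 to 3.99 times at the ages between. Their part in the members' changes was not tested. Of 8 hepatocyte markers 0 were called at 24 against 3 or against 18 months, and their summed signal ran from 2734.4 to 4831.8 times the percentile over all arrays.

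Other genes prepare collagen for secretion. The counts in this paragraph stand against 10.8% of all genes called higher and 15% lower for 24 against 18 months. For 24 against 3 months the shares of all genes were 4.23% higher and 9.08% lower. Of 12 tested processing genes 4 were higher and 0 lower at 24 than at 18 months. They were Pcolce, an enhancer of procollagen cleavage (2.20, adjusted p = 0.0358), Fkbp10, a collagen chaperone (adjusted p = 0.00821), and the lysyl hydroxylases Plod1 (0.38, adjusted p = 0.0186) and Plod3 (0.34, adjusted p = 0.0465). Pcolce was uneven at 24 months, 2.58 ± 1.96, against 0.39 ± 0.14 at 18 months. Fkbp10 lay above background on 6 of 16 arrays and is given no fold. For 24 against 3 months 0 were higher and 1 was lower, Serpinh1, the collagen chaperone HSP47 (-0.70, adjusted p = 0.0072). Of 22 tested proteoglycans and matricellular proteins 0 were higher and 2 lower for 24 against 3 months, the microfibril genes Mfap5 (-2.60, adjusted p = 0.00331) and Fbn2 (-1.10, adjusted p = 0.0378), and 6 were higher and 3 lower for 24 against 18 months. Mfap5 and Fbn2 lay above background on 13 of 16 arrays each.

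The counts of the pathway lists here stand against 13.3% of all genes called for 24 against 3 months and 25.8% for 24 against 18 months. TGF-β is the main inducer of collagen genes in stellate cells, and the number of its pathway genes called was near those shares in both comparisons. Of 22 tested genes of its pathway 1 was higher and 2 were lower at 24 than at 3 months: Ltbp4, which binds latent TGF-β (0.80, adjusted p = 0.0254), Tgfbr3, a co-receptor (-0.97, adjusted p = 0.00855), and Inhba, an activin subunit (-1.35, adjusted p = 0.00901). At 24 against 18 months 4 were higher and 1 lower, with 1.47 (adjusted p = 0.00165) for the ligand Tgfb1, whose means were -1.63 ± 0.59 at 24 months and -3.11 ± 0.30 at 18 months. Of 10 tested integrins and collagen receptors 1 was higher, Itgb5 (0.53, adjusted p = 0.0435), and 1 lower, Itga6 (-0.71, adjusted p = 0.0177), for 24 against 3 months. In the plasminogen system, which activates several metalloproteinases, 3 of 7 tested genes were higher for 24 against 18 months: the protease Plau (0.87, adjusted p = 0.00155), its receptor Plaur (1.25, adjusted p = 0.0272) and the inhibitor Serpine2 (0.67, adjusted p = 0.00348).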

How the data were processed

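Liver mRNA was measured on 16 one-colour arrays of 5 ages, grouped by the stated age. Per the file headers, the deposited intensity columns came from Agilent Feature Extraction 10.7.3.1, which corrects the signal for background and does not normalize between arrays, and the background and outlier flags (other) are the authors' deposited columns too. The authors also deposited a value table on a log2 scale, whose normalization is not stated. Its columns correlated with the scanner values of their arrays at r = 0.997 or higher, with column medians of 4.92 to 4.94, so genes were not centred. It served as an alternative, and the origin of its scale is unknown.

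From the log2 processed intensity, the 75th percentile of its array was subtracted. Outlier spots were left out, and spots of a probe were averaged, which left 79 missing probe values. Probes entered the fit when every array of 1 age or more had them well above background (25697 probes), and a gene was read by its kept probe with the highest mean. Names of members are those in the array files. Other probes were named through RefSeq by accession (18028) or symbol (3168), or kept the file's name (19816). Sequences and rn4 positions are those of the array files, and promoter windows those of RefSeq (GRCr8).

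A mean per age was fitted with limma 3.58.1 (R 4.3.3), with two-sided moderated tests and Benjamini-Hochberg adjustment over all 21489 genes at 0.05, and the fit was tested on simulated data. Where the probe of a member lay above background on no array of a group, the fold is a bound: the mean of the brighter group against, per array, the higher of the dim probe's own value and the lowest signal of any probe well above background. No bounds were worked out for genes of the other lists. Tables were handled with pandas 2.3.3 and figures drawn with matplotlib 3.10.9 (Python 3.11.15).

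The members and gene lists were chosen with earlier results of these data known. Names beside values went to a set of members, every member called for 24 against 3 months, the 5 largest called rises and falls of each step, the 10 smallest adjusted p-values for any difference between ages, and up to 4 genes of each other list. 1 gene result that this would have named is not reported here. Members and list genes named beyond this, mostly for 24 against 18 months, were chosen after their values were seen. Alternatives were other background corrections, normalizations, filters and probe rules, slide, scan session and replicate number as blocks, fits within one slide, one scan day or one session, fits on the compared ages alone, and leaving out each array. Leaving out 12-month array 2 and 24-month arrays 3 and 4 together was added after seeing the data.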

Additional observations from a re-analysis of the deposited data

Results flagged for a closer look

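3 of 66 tested members had 1 array of 24 months far from the others, a pattern that chance gives in about 1 in 20 groups. Adamts10 was at -4.33 on array 4, against -3.83 on the nearest array. Lama5 was at 0.06 on array 3, against -1.41 on the nearest, and Lamc1 was at -1.68 on array 4, against -2.19. Without array 4 the call of Adamts10 for 24 against 18 months stayed.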

How the results depend on the processing

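Of 59 called changes of members over the 5 comparisons, 5 kept their call under every alternative run: Col3a1 and Loxl2 for 24 against 3 and for 9 against 3 months, and Adam8 for 24 against 3 months. No alternative could compare 24 and 3 months within a slide or scan day, since none held both ages. With each array left out in turn, 27 of the 59 kept it. Over 1104 values under the alternatives the call was kept in 791, lost in 302 and turned in 11. For 24 against 3 months (13 called members), the count was 6 under normexp correction, 5 with the slide as a random block and 20 without the 3 arrays that correlated least with their age. For 9 against 3 months (9), it was 5 under normexp and 17 within the scan day, within the session or on the compared ages alone. For 12 against 9 months (6), it was 0 under normexp, 2 with no filter, 10 with the slide as a random block, 0 with the replicate block, 3 within the scan day or session and 0 on the compared ages alone. For 18 against 12 months (2), it was 0 under normexp, 1 with no filter, 0 with the slide as a random block, 1 with the session block, 1 with the replicate block, and 0 within the scan day or session or on the compared ages alone. For 24 against 18 months (29), it was 4 under normexp, 19 with the filter on all 16 arrays (fewer genes tested), 1 with the slide as a random block and 4 with the session block. For any difference between ages (30), it was 13 under normexp and 18 with the slide as a random block. Leaving out 1 array gave 8 to 16 calls for 24 against 3 months, 4 to 7 for 9 against 3, 0 to 5 for 12 against 9, 1 to 6 for 18 against 12, 18 to 33 for 24 against 18, and 27 to 38 for any difference.

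Under normexp the median change of all genes for 24 against 3 months was 0.12, against -0.039 in the main processing, and these changes turned: 0.17 for Adamts1, 0.15 for Adamts10, 0.17 for Adamts3, 0.19 for Col2a1, 0.074 for Col9a2 and 0.26 for Mmp1b for 24 against 18 months, and 0.0057 for Adamts3, 0.21 for Lama1 and 0.20 for Mmp1b for 24 against 3 months. Each of them lay above background on fewer than 16 arrays. Normexp called 2 members higher and 4 lower for 24 against 3 months. Quantile normalization called 0 higher and 5 lower for 12 against 9 months. The mean of its probes gave -0.13 for Mmp16, and the session block -0.11 for Mmp23, both for 24 against 18 months. Replicate numbers did not pair the samples: correlations of same-numbered arrays ran from -0.3 to 0.071, and with the replicate block 12 members were called for 24 against 3 months and 23 for 24 against 18. Dim members lay near background, and the cause of the differences between settings was not tested.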
